A study of Mus musculus with 20 samples.

Results

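Mammary glands of 3 tamoxifen-treated mice that later developed a mammary tumor were compared with glands of 3 placebo mice that stayed free of tumors, across all genes on the array. These are the animals whose outcome ran against their treatment. They were chosen from the labels alone, by treatment and recorded outcome, and are 6 of the 20 animals measured: tamoxifen animals 1, 2 and 10, and placebo animals 3, 5 and 6, each with 1 array. The other 14 animals were 7 placebo mice with a later tumor and 7 tamoxifen mice without one.

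All 20 were female FVB/N mice, heterozygous for the NRL-TGFα transgene of line 1372-1 TgN(Nrl-tgfalpha)29EPS, so every group, the tumor-free placebo animals included, carried it. The NRL promoter directs transforming growth factor α to the mammary gland. At 8.5 weeks of age each mouse received an implant under the skin that held 5 mg of tamoxifen or carrier without drug. At 20.5 to 21 weeks, 4 weeks after treatment had ended, 1 number 4 gland without a tumor was taken for total RNA, and the animals were then watched to at most 2 years of age. The RNA therefore came from whole glands before the outcomes were scored, and from a single transgenic line. In such bulk samples, fewer cells of a type and less RNA per cell cannot be told apart.

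TGFα binds the epidermal growth factor (EGF) receptor on mammary epithelial cells and drives their growth. Tamoxifen competes with oestrogen at the oestrogen receptor, through which hormone-sensing luminal cells direct ductal growth. The gland around the epithelium is mostly fat, with vessels, connective tissue and immune cells, and the milk protein genes are read out by luminal alveolar cells.

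The compared groups differ in treatment and in outcome at once, so the effects of each cannot be told apart within this comparison. Placebo animals with tumors against tamoxifen animals without tumors, 7 against 7, have the same outcome difference and the opposite treatment difference, and share no array with it. The sum of both differences sets all tumor groups against all tumor-free groups, and their subtraction sets both tamoxifen groups against both placebo groups. Values are the deposited log2 expression values, on which a difference of 1 is a 2-fold difference, and every difference below is tamoxifen with tumor minus placebo without tumor unless another is named.

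No gene passed the test between the tamoxifen tumor and placebo tumor-free animals. In limma's model of the 4 groups, with Benjamini-Hochberg adjustment over 12499 genes, 0 genes (0%) had an adjusted p under 0.05, and the smallest adjusted p was 0.99991. At an unadjusted p under 0.05 there were 107 genes higher (0.856%) and 231 lower (1.85%) in the tamoxifen tumor animals, 338 in all (2.7%). The 3 and 3 values did not overlap for 466 genes higher (3.73%) and 804 lower (6.43%), 1270 in all (10.2%). That split depended on array scaling: it was 342 higher and 984 lower with each array centred on its median, and 658 higher and 552 lower after quantile normalization. The same fit called 300 genes higher (2.4%) and 279 lower (2.23%) in the 7 against 7 pair, 579 in all (4.63%). The median standard error was 0.11 for the 3 against 3 difference and 0.072 for the 7 against 7 difference. Because no gene passed, all genes below are named with values that did not pass, unless a passed test is stated.

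Differences between the groups were small for most genes. The median difference was -0.015, with 5512 genes above 0 and 6987 below 0, and the median absolute difference was 0.070. With arrays centred on their medians the median was -0.036, and after quantile normalization it was 0.008, so no lean of all genes in 1 direction is read from these values. Differences above 1 were found for 27 genes and below -1 for 3. On the first principal component of the 20 arrays, which held 31.9% of the variance, tamoxifen animals 1, 2 and 10 lay at 5.9, 3.8 and -1.8, and placebo animals 3, 5 and 6 at 2.3, 11.5 and 8.6. The groups overlapped there, while placebo tumor animals 7, 8 and 9 lay apart at -30.9, -41.1 and -14.6.

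Genes called in the 7 against 7 pair lay on both sides of 0 in the 3 against 3 difference. Of its 300 genes higher in placebo tumor animals, 198 were above 0 (66%, beside 44.1% of all genes) and 102 below 0. Their median was 0.06, with 16 non-overlapping higher and 8 lower. Over all genes 3.73% did not overlap and were higher, and 6.43% lower. Of its 279 lower genes, 127 were above 0 (45.5%, close to the share of all genes) and 152 below 0, with a median of -0.01. Subtraction of the pairs called 1 gene (0.008%), Akr1cl, and their sum called 1 gene (0.008%), Csn1s1.

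**Figure D1:**
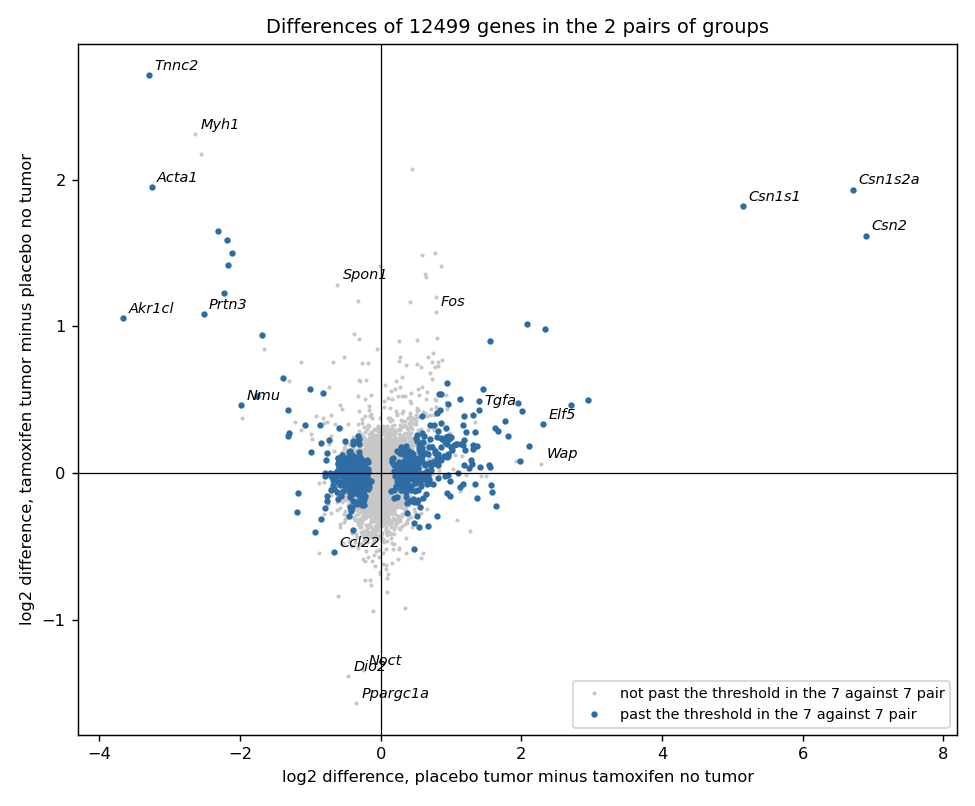
Each point is 1 of 12499 genes, with the log2 difference of placebo tumor minus tamoxifen tumor-free animals (7 and 7) on the x axis and that of tamoxifen tumor minus placebo tumor-free animals (3 and 3) on the y axis. Muscle genes and Akr1cl lie at the upper left, caseins at the upper right, and Ppargc1a, Dio2 and Noct at the bottom near an x value of 0.

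Akr1cl, which encodes a member of the aldo-keto reductase family, was the gene called when both tamoxifen groups were set against both placebo groups. The 250 bases before its RefSeq start (GRCm38.p6, chr1:65032760-65033009, minus strand) are shown because they hold 1 GGTCA, the oestrogen response half-site, in capitals, 162 bases before the start.
Akr1cl: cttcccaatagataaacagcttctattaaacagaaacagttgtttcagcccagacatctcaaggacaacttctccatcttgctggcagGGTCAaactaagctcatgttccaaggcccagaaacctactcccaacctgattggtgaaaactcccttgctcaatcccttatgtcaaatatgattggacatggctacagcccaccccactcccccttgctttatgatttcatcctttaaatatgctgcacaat
GGTCA on either strand was found in 11577 of 32851 windows of this length (35.2%), and the match is a description of these letters only. Akr1cl stood at 9.13, 8.31 and 9.55 in tamoxifen tumor animals 1, 2 and 10 and at 7.93, 7.73 and 8.17 in placebo tumor-free animals 3, 5 and 6. All tamoxifen values lay above all placebo values, by 1.06 ± 0.46 (SE) on average, a 2.08-fold difference with an unadjusted p of 0.0319 in limma. The 7 tamoxifen tumor-free animals were higher still, from 10.06 to 12.57 with a median of 11.76, and no value of the tamoxifen tumor animals reached their range. The 7 placebo tumor animals spanned 7.62 to 8.78, around the tumor-free placebo values. The 2 pairs differed by 4.72 (limma adjusted p = 0.000627), and Akr1cl was the only gene called there.

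Prtn3 and Nmu came next to Akr1cl by smallest p, higher, in the subtraction of the pairs. Higher levels in the tamoxifen groups are therefore part of how they were chosen. Prtn3, a serine protease of neutrophil granules, read 8.76, 7.76 and 9.03 in the tamoxifen tumor animals and 7.47, 7.07 and 7.75 in the tumor-free placebo animals. The groups did not overlap and differed by 1.08, while the tamoxifen tumor-free animals had a median of 10.66. Nmu, the neuropeptide neuromedin U, read 6.09, 6.12 and 6.59 against 5.59, 5.87 and 5.95. That difference of 0.47 is set beside a median of 8.00 in tamoxifen tumor-free animals and 5.94 in placebo tumor animals. All 6 Nmu values lay below 6.85, the median of all values, so Nmu was tested only because of animals outside this comparison. Neither gene passed in the subtraction of the pairs, with limma adjusted p of 0.119 for Prtn3 and 0.143 for Nmu.

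The caseins, the main milk proteins, were high in 2 of the 3 tamoxifen tumor animals. Csn1s1 is shown with the 250 bases before its start (GRCm38.p6, chr5:87665958-87666207, plus strand), where 1 match to TTCNNNGAA, the STAT site through which prolactin signalling reaches milk genes, stands in capitals 100 bases before the start.
Csn1s1: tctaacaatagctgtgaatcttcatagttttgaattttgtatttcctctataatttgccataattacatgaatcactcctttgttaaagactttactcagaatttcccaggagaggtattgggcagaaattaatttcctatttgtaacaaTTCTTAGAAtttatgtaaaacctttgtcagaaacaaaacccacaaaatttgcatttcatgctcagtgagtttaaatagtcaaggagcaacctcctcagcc
This motif was found in 2306 of 32851 windows (7.0%), on either strand. Csn1s1 read 7.27, 10.14 and 10.64 in tamoxifen animals 1, 2 and 10 against 7.90, 6.52 and 8.19 in placebo animals 3, 5 and 6. Tamoxifen animal 1 lay inside the placebo range, and animals 2 and 10 lay above it. The difference was 1.82 ± 0.78 (unadjusted p 0.0307, limma). The placebo tumor animals ran from 10.89 to 13.72 and the tamoxifen tumor-free animals from 6.80 to 8.22. The sum of both pairs was 6.97, the 1 gene that passed (limma adjusted p = 0.00539). With the pan-epithelial gene mean as a covariate the sum was 5.05 (limma adjusted p = 0.464).

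Other milk genes varied as much within the groups as between them. Csn2, β-casein, read 5.56, 9.58 and 11.96 in the tamoxifen tumor animals and 9.45, 5.53 and 7.26 in the tumor-free placebo animals. Csn1s2a read 4.81, 8.49 and 10.85 against 7.79, 5.08 and 5.49. For both genes animal 10 was the highest of the 6 and tamoxifen animal 1 lay close to or below the lowest placebo value, and the differences were 1.62 ± 1.33 for Csn2 and 1.93 ± 1.38 for Csn1s2a, with 1.90 and 0.13 on its other tested probe sets. Csn3, κ-casein, differed by 0.48 (-0.12 on its second tested probe set), and Wap, whey acidic protein, by 0.07 with values from 6.54 to 7.0 in all 6 animals. Of 13 milk protein and alveolar genes tested, 0 passed, 12 lay above 0, 2 did not overlap (beside 3.73% of all genes higher), and the median difference was 0.18, against 1.32 in the 7 against 7 pair.

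Tph1, the enzyme of serotonin synthesis, and Cxcl15, a chemokine of secretory epithelia, followed animal 10. Tph1 read 6.75, 7.71 and 9.91 against 7.58, 6.38 and 7.38, and Cxcl15 read 7.93, 8.30 and 10.00 against 8.57, 7.48 and 8.79. In both, tamoxifen animal 10 was the highest and the remaining tamoxifen values overlapped the placebo range. The differences were 1.01 ± 0.67 for Tph1 and 0.46 ± 0.51 for Cxcl15, whose second tested probe set differed by 0.18.

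Luminal progenitor genes lay slightly higher without separating the groups. Of 14 tested, 0 passed and 0 did not overlap, 11 lay above 0, and the median was 0.22. Elf5, the transcription factor of alveolar progenitors, read 8.96, 9.11 and 8.94 in the tamoxifen tumor animals and 9.30, 7.95 and 8.76 in the placebo animals. Placebo animal 3 was the highest of the 6 and placebo animal 5 the lowest, and the difference was 0.33 ± 0.54, or 0.11 on the second tested probe set. Kit, the receptor of stem cell factor, differed by 0.29 ± 0.28. Lcn2, an iron-siderophore binding protein secreted by luminal cells, read 9.89, 10.69 and 10.44 against 10.31, 8.74 and 9.27, a difference of 0.90 ± 0.47. Placebo animal 3 again lay within the tamoxifen range, and placebo animals 5 and 6 below it.

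Tgfa, the gene for the ligand that the transgene supplies, was higher in each tamoxifen tumor animal than in each tumor-free placebo animal on its brightest probe set. There it read 8.30, 8.41 and 8.22 against 8.17, 7.64 and 7.82. The difference was 0.43 ± 0.37, with a 95% interval from -0.34 to 1.20, and the other tested probe sets differed by only 0.03 and 0.14. Placebo tumor animals were higher, from 8.48 to 10.27, and tamoxifen tumor-free animals ran from 7.67 to 8.00. Whether this probe set also reads the transgene's transcript was not tested. Egfr, its receptor, was nearly level, at 9.49, 9.35 and 9.46 against 9.41, 9.41 and 9.37 (difference 0.04, 95% interval -0.13 to 0.21), and its other tested probe sets differed by 0.02 to 0.27. Of 7 genes of the EGF receptor family and its ligands tested, 0 passed and 1 did not overlap (Tgfa, beside 3.73% of all genes higher). Of these genes 3 lay above 0 and 4 below, with a median of -0.02 that became 0.03 after quantile normalization. Errfi1, a feedback inhibitor of the receptor, read 9.77, 10.79 and 9.68 against 10.94, 10.80 and 10.65. Tamoxifen animal 2 lay with the placebo animals, and the difference was -0.72 ± 0.39. Among 12 feedback and ERK target genes, 6 lay above 0 and 6 below, with a median of -0.02 that became 0.02 after quantile normalization.

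The hormone receptors gave no separation. Esr1, the oestrogen receptor, read 9.70, 10.31 and 9.70 against 9.99, 10.10 and 9.85, a difference of -0.07 with a 95% interval from -0.59 to 0.45. Pgr, the progesterone receptor and an oestrogen target, read 8.24, 7.68 and 8.69 against 8.17, 7.82 and 8.07, a difference of 0.19 ± 0.36. Of 12 oestrogen response genes tested, 0 passed, 0 did not overlap and 10 lay above 0, with a median of 0.13. Of 8 hormone-sensing luminal genes, 1 did not overlap in each direction, beside 3.73% of all genes higher and 6.43% lower. Foxa1, a pioneer factor for the oestrogen receptor, read 9.54, 9.67 and 9.41 against 9.37, 8.60 and 9.40, so placebo animal 6 nearly met tamoxifen animal 10. Tbx3, a T-box factor of mammary development, read 7.49, 7.45 and 7.47 against 8.02, 8.08 and 7.63. The tamoxifen values lay close together below the placebo values, and the difference was -0.44 ± 0.21, while the other tested probe sets differed by -0.01 and -0.28.

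Epithelial genes lay higher in the tamoxifen tumor animals, and placebo animal 5 was the lowest of the 6. All 14 pan-epithelial and luminal keratin genes tested lay above 0, 3 did not overlap (beside 3.73% of all genes higher), 0 passed, and the median was 0.28, against 0.94 in the 7 against 7 pair. The mean centred level of the list was -0.20, -0.16 and 0.08 in the tamoxifen tumor animals and -0.08, -0.83 and -0.34 in placebo animals 3, 5 and 6. Placebo animal 3 lay within the tamoxifen range, and without placebo animal 5 the median difference of the list was 0.14. Krt18, a luminal keratin, read 10.45, 10.62 and 11.06 against 10.70, 9.44 and 10.56. Cldn4, a tight junction claudin, read 8.49, 8.17 and 8.49 against 8.16, 7.51 and 8.15, a difference of 0.44 ± 0.22.

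Basal cell genes gave 3 of 12 non-overlapping and higher (again beside 3.73%), with 10 above 0 and a median of 0.12. Krt14, the basal keratin, read 8.32, 8.42 and 7.99 against 7.76, 7.27 and 7.46. Every tamoxifen value lay above every placebo value, and the difference was 0.75 ± 0.42. Trp63, the transcription factor that maintains basal cells, read 6.76, 6.58 and 6.82 against 6.38, 5.49 and 5.92, a difference of 0.79 ± 0.50 with no overlap. All 6 Trp63 values lay below 6.85, the median of all values, so it was tested only because of animals outside this comparison. Its dimmer probe sets, which were not tested, differed by 0.02 to 0.09. Placebo animal 5 was the lowest for both genes, and without it the median of the list was -0.02.

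**Figure D2:**
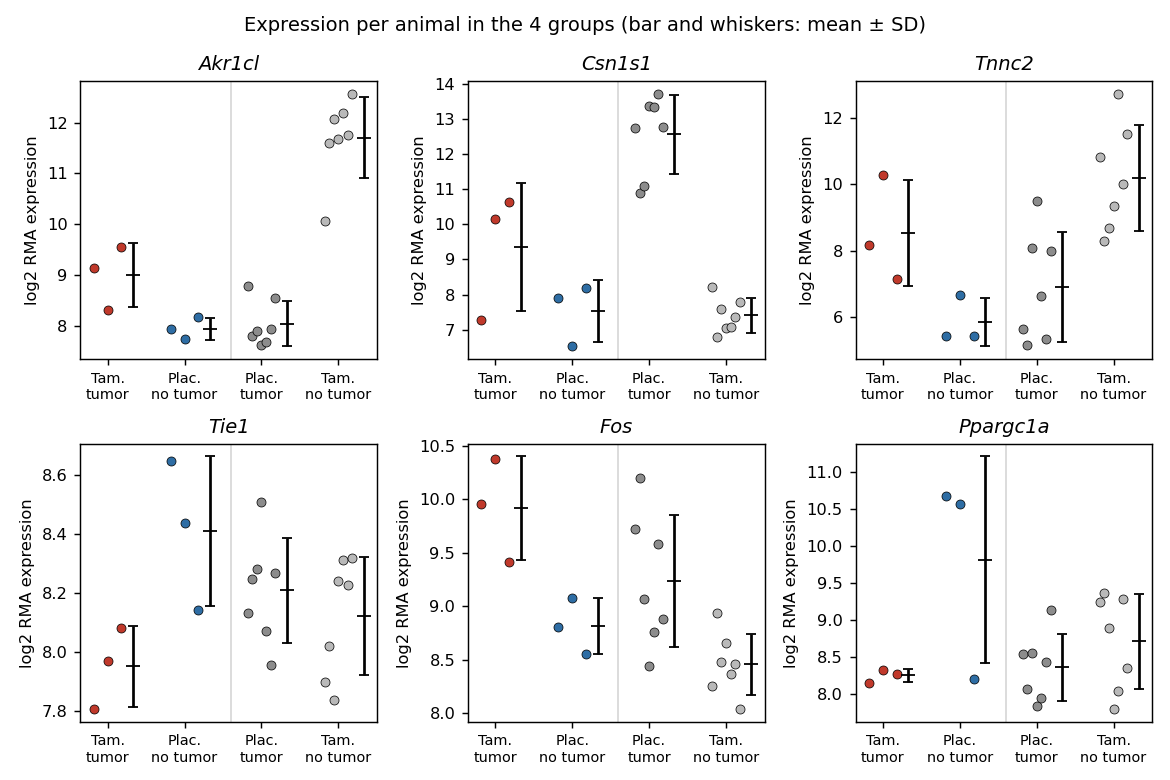
Log2 expression of 6 genes in each animal of the 4 groups (3, 3, 7 and 7 animals), with the mean and SD as a bar with whiskers beside the points. Akr1cl, Tnnc2 and Fos lie higher and Tie1 lower in all 3 tamoxifen tumor animals than in all 3 placebo tumor-free animals, while Csn1s1 and Ppargc1a overlap.

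Skeletal muscle genes gave the largest differences. Of 16 tested, 15 lay above 0, 10 did not overlap and were higher (3.73% of all genes did so), 0 passed, and the median difference was 1.32, against -0.015 over all genes. Tnnc2, fast skeletal troponin C, read 8.18, 10.29 and 7.15 in tamoxifen animals 1, 2 and 10 and 5.41, 6.67 and 5.41 in placebo animals 3, 5 and 6. It differed by 2.71 ± 1.15 (6.54-fold, unadjusted p 0.0296, limma), and tamoxifen animal 2 was the highest. Acta1, skeletal α-actin, read 10.02, 11.73 and 8.70 against 7.39, 8.59 and 8.63. It differed by 1.95 ± 1.08, and tamoxifen animal 10 lay close above placebo animals 5 and 6. Without tamoxifen animal 2 the list median was 0.70. With dim probe sets included it was 0.93 over 21 genes. Only 9 listed genes had a mean over the 6 arrays above 6.85, the median of all values, and their median difference was 1.42.

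In myosin, troponin and creatine kinase genes, tamoxifen animal 2 was again the highest of the 6 and animal 10 the lowest of the tamoxifen animals. Myh1 and Myh4, fast myosin heavy chains, differed by 2.31 ± 1.28 and 2.18 ± 1.14. Tnni2 (fast troponin I) differed by 1.65, Mylpf (fast myosin light chain) by 1.59, Ckm (muscle creatine kinase) by 1.5 and Atp2a1 (the muscle calcium pump) by 1.42, all without overlap. These genes, with Tnnc2 and Acta1, were named for large differences without overlap, so their separation is part of that choice. The second tested probe sets of Tnni2 and Ckm differed by less, 0.70 and 0.16. In the 7 against 7 pair the list had a median of -2.15, with 10 genes called lower, beside 2.23% of all genes. The mean centred list level was -0.15, 1.09 and -0.77 in the tamoxifen tumor animals and -1.32, -0.89 and -1.34 in the tumor-free placebo animals. It ran from -0.08 to 3.47 in tamoxifen animals without tumors and from -1.48 to 0.47 in placebo animals with tumors. Whether muscle next to the gland was taken along was not tested.

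Unc45b, a myosin chaperone of striated muscle, ran against the other muscle genes. It read 8.18, 8.31 and 8.23 in the tamoxifen tumor animals and 8.72, 8.95 and 8.76 in the tumor-free placebo animals. The groups lay apart by more than their internal spread, and the difference was -0.57 ± 0.17 (unadjusted p 0.00299, limma). Ablim3, an actin-binding LIM protein, read 7.74, 8.17 and 8.09 against 8.80, 8.71 and 8.37, a difference of -0.63 ± 0.19.

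Most endothelial genes lay lower on average in the tamoxifen tumor animals. Of 12 tested, 10 lay below 0, 7 did not overlap and were lower, 6 were lower with an unadjusted p under 0.05, 0 passed, and the median was -0.28. Over all genes 6.43% did not overlap and were lower, and 1.85% were lower with an unadjusted p under 0.05. The mean centred list level was -0.19, -0.12 and 0.03 in tamoxifen animals 1, 2 and 10 and 0.28, 0.15 and 0.01 in placebo animals 3, 5 and 6. On that level the groups overlapped, with tamoxifen animal 10 just above placebo animal 6. In the 7 against 7 pair the list had a median of 0.08. Cdh5, the vascular endothelial cadherin, read 8.76, 8.78 and 8.98 against 9.40, 9.29 and 8.89. Placebo animal 6 lay between tamoxifen animals 2 and 10, and the difference was -0.35 ± 0.11 (unadjusted p 0.0045, limma). Tie1, a receptor tyrosine kinase of vessel endothelium, read 7.80, 7.97 and 8.08 against 8.65, 8.44 and 8.14. The values did not overlap, and the difference was -0.46 ± 0.15. Vwf, von Willebrand factor of larger vessels, and Lyve1, a receptor of lymphatic endothelium and some macrophages, did not share this direction, at 0.09 ± 0.15 and 0.08 ± 0.42.

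Rasip1, Apold1 and Ushbp1, which are not on the list, were among the 12 lower genes with the smallest p. Their low values are part of that choice from the same 6 animals, and are not separate support for the list. Rasip1, a Rap1 effector of vessel formation, read 8.2, 8.43 and 8.55 against 8.93, 8.74 and 8.59 (difference -0.36 ± 0.10). Apold1, an apolipoprotein L domain protein of endothelium, read 7.31, 7.55 and 7.40 against 8.34, 8.40 and 7.70 (difference -0.73 ± 0.22). Ushbp1 read 8.35, 8.47 and 8.48 against 8.90, 8.81 and 8.82 (difference -0.41 ± 0.12). All tamoxifen values lay below all placebo values for each of them, with placebo animals 3 and 5 farther away than animal 6 for Rasip1 and Apold1.

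The labels number the animals 1 to 10 within each treatment, and again within each outcome. Animals 1 to 5 hold outcome numbers 1 to 5, and animals 6 to 10 hold outcome numbers 6 to 10. The division into numbers 1 to 5 and 6 to 10 was read from this, and the labels neither state it nor call it a batch. Within numbers 1 to 5, tamoxifen animals 1 and 2 against placebo animals 3 and 5, Cdh5 differed by -0.58, Tie1 by -0.66 and Rasip1 by -0.52. Between tamoxifen animal 10 and placebo animal 6 the same genes differed by 0.09, -0.06 and -0.03. Other genes differed in the same direction in both sets of numbers, such as Fos (1.22 and 0.86), Spon1 (1.25 and 1.36), Acaa1b (-0.94 and -0.86) and Akr1cl (0.89 and 1.39). In a fit of numbers 1 to 5 alone, limma called 4 genes, all lower, among them Cdh5 (adjusted p = 0.0391) and Ppargc1a (-2.38, adjusted p = 0.00267).

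**Figure D3:**
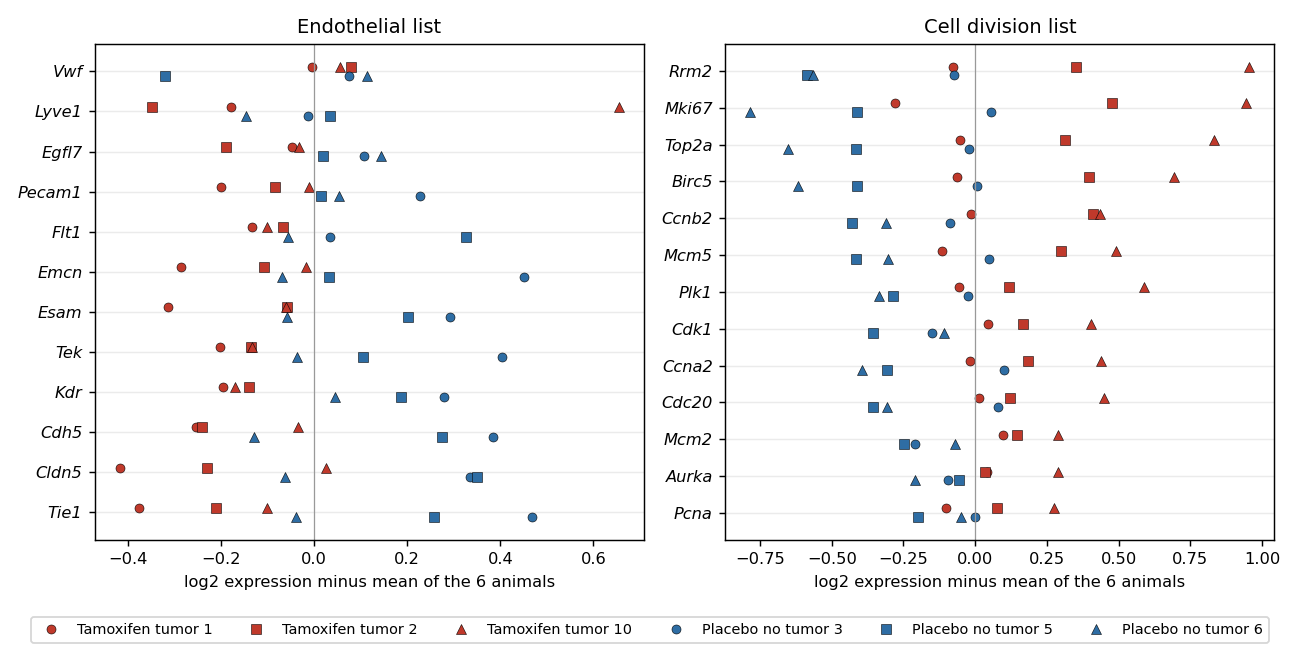
Log2 expression of each endothelial gene (left) and cell division gene (right) in each of the 6 animals, as the distance from the mean of the 6, with tamoxifen tumor animals in red and placebo tumor-free animals in blue. Placebo animals 3 and 5 lie to the right for most endothelial genes, and tamoxifen animals 2 and 10 lie to the right for most cell division genes.

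Cell division genes were higher in tamoxifen animals 2 and 10. All 13 tested lay above 0, 4 did not overlap (beside 3.73% of all genes higher), 0 passed, and the median was 0.43. Mki67, which marks cycling cells, read 7.42, 8.18 and 8.65 in tamoxifen animals 1, 2 and 10 and 7.76, 7.29 and 6.92 in placebo animals 3, 5 and 6. Tamoxifen animal 1 lay among the placebo animals. The difference was 0.76 ± 0.62, with a 95% interval from -0.54 to 2.06. Top2a, topoisomerase IIα, differed by 0.73 ± 0.55, and Rrm2, the small subunit of ribonucleotide reductase, by 0.82 ± 0.61 (0.41 and 0.79 on its other tested probe sets). The mean centred list level was -0.18, 0.11 and 0.41 against -0.16, -0.48 and -0.49, which puts tamoxifen animal 1 beside placebo animal 3.

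Ppargc1a, Dio2 and Noct were high in placebo animals 3 and 5. Ppargc1a, the coactivator of mitochondrial biogenesis and heat production in brown fat, is shown with the 250 bases before its start (GRCm38.p6, chr5:51567726-51567975, minus strand), where 1 match to TGACG, the cyclic AMP response half-site, lies 49 bases before the start and reads CGTCA on the strand printed.
Ppargc1a: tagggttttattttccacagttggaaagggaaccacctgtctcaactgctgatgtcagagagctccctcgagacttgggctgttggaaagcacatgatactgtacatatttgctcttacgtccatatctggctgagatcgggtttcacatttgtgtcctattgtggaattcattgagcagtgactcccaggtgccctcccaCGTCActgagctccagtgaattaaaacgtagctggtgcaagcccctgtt
Ppargc1a read 8.14, 8.33 and 8.27 in the tamoxifen tumor animals and 10.67, 10.56 and 8.21 in placebo animals 3, 5 and 6. Placebo animal 6 lay inside the tamoxifen range, and the difference was -1.57 ± 0.52 (2.96-fold, unadjusted p 0.00687, limma). Dio2, which converts thyroxine to its active form in brown fat, read 7.88, 8.00 and 7.88 against 10.24, 10.07 and 7.59, a difference of -1.38, with -1.08 and -0.44 on its other tested probe sets. Noct, a deadenylase with a daily rhythm, read 8.62, 9.06 and 8.73 against 10.68, 10.41 and 9.34, a difference of -1.34 ± 0.40 without overlap. It was named for its small p and its non-overlap, so that separation is part of the choice. The highest values of the 14 other animals were 9.36 for Ppargc1a and 10.00 for Noct, below placebo animals 3 and 5.

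The brown adipocyte and clock lists did not separate the groups as a whole. Of 10 brown adipocyte genes tested, 9 lay below 0, 1 did not overlap and was lower (beside 6.43% of all genes), and the median was -0.13. The mean centred list level was 0.11, -0.07 and 0.29 in the tamoxifen tumor animals and 0.74, 0.95 and -0.17 in the tumor-free placebo animals, again with animals 3 and 5 high. Of 13 circadian clock genes, 11 lay below 0, 0 did not overlap, and the median was -0.10. Their mean centred level was 0.09, 0.04 and -0.16 in the tamoxifen tumor animals and 0.01, 0.03 and 0.28 in the tumor-free placebo animals, so that animal 6 was the highest and animals 3 and 5 lay within the tamoxifen range. Per1, a core clock repressor, read 9.04, 9.59 and 9.07 against 9.84, 9.63 and 9.52. Irf4, a transcription factor of lymphocytes that is also induced in fasted fat, read 8.90, 9.44 and 9.55 against 11.07, 10.16 and 9.08. It was high in placebo animals 3 and 5, and differed by -0.81, or by -0.45 on its second tested probe set. Of 12 heat shock genes, 10 lay below 0, 0 did not overlap, and the median was -0.29.

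Of the immediate early genes, Fos lay higher and Nr4a1 lower without overlap, while the list as a whole did not separate the groups. The promoters of Fos and Nr4a1 are shown because both are induced within minutes of cyclic AMP or growth factor signals and both hold TGACG, here in capitals in either orientation. The windows are GRCm38.p6 chr12:85473640-85473889 (plus strand) for Fos and chr15:101266596-101266845 (plus strand) for Nr4a1.
Fos: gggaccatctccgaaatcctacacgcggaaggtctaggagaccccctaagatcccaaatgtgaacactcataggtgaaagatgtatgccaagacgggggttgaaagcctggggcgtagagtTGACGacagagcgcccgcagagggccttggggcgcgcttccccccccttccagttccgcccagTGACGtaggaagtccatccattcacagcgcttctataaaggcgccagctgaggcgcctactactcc
Nr4a1: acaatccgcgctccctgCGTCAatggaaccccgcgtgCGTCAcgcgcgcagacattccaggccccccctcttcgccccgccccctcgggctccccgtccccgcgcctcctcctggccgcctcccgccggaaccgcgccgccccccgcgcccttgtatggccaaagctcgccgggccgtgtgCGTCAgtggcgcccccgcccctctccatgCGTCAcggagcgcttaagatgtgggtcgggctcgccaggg
Fos held 2 matches, Nr4a1 held 4, and 5836 of 32851 windows held 1 or more (17.8%). Fos, a subunit of the AP-1 transcription factor, read 9.96, 10.38 and 9.41 in the tamoxifen tumor animals and 8.81, 9.08 and 8.55 in the tumor-free placebo animals. All tamoxifen values were above all placebo values, by 1.10 ± 0.35 (2.14-fold, 95% interval 0.38 to 1.83, unadjusted p 0.00495, limma). Nr4a1, an orphan nuclear receptor, read 9.83, 9.44 and 8.91 against 10.03, 10.64 and 10.02. Here all tamoxifen values were lower, by -0.83 ± 0.48. Fos was named for its small p and Nr4a1 for its non-overlap, so these separations are part of how both were chosen. Egr1, a zinc finger factor induced with Fos, read 10.94, 9.97 and 9.76 against 9.36, 9.48 and 10.09, with overlap. Of 13 immediate early genes tested, 9 lay above 0 and 4 below, 0 passed, and the median was 0.10. The count without overlap, 1 in each direction, is close to the shares over all genes, 3.73% higher and 6.43% lower.

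Immunoglobulin genes were high in tamoxifen animals 2 and 10 and low in animal 1. Igkv4-68, an immunoglobulin κ variable segment, read 6.79, 8.26 and 8.61 against 6.87, 6.93 and 7.16. Iglv1, a λ variable segment, read 7.14, 9.82 and 10.54 against 7.55, 7.28 and 8.21. In both, tamoxifen animal 1 lay below all 3 placebo animals, and animals 2 and 10 above them. The differences were 0.90 ± 0.31 for Igkv4-68 and 1.48 ± 0.64 for Iglv1, whose second tested probe set differed by 0.51. Without tamoxifen animal 1, Igkv4-68 differed by 1.45 and was the 1 gene called (limma adjusted p = 0.0162). Mzb1, a chaperone of antibody assembly, read 9.22, 10.27 and 10.93 against 9.30, 9.02 and 9.55, with the same animals high. Of 9 plasma cell genes tested, 8 lay above 0, 0 did not overlap, 0 passed, and the median was 0.28. The 1 below 0 was Irf4, at -0.81, which went the other way and was high in placebo animals 3 and 5. Variable segments resemble each other closely, so the probe sets may read several segments.

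T cell and B cell lists had medians close to 0, while the neutrophil list lay higher. Of 12 T cell genes, 6 lay above 0 and 6 below with a median of -0.01 (0.04 after quantile normalization). In the 7 against 7 pair, by contrast, 11 of the 12 were called lower, beside 2.23% of all genes. Of 9 B cell genes, 7 lay above 0 with a median of 0.02 (-0.001 with arrays centred on their medians). Ccl22, a chemokine of dendritic cells and macrophages that attracts regulatory T cells, read 8.92, 8.66 and 8.45 against 9.33, 9.52 and 8.79. Placebo animal 6 lay between tamoxifen animals 1 and 2, and the difference was -0.54 ± 0.19. It is set beside a difference of -0.67 in the 7 against 7 pair, which passed there (limma adjusted p = 0.0049). Ccl22 was among the genes with the smallest p, lower, in the sum of the pairs. Lower values in both pairs are therefore part of how it was chosen. Of 7 neutrophil genes tested, 6 lay above 0, 0 passed and the median was 0.39, which was 0.13 with dim probe sets included. The 2 that did not overlap, beside 3.73% of all genes, were Prtn3 and Ngp, a granule protein of neutrophil precursors. Ngp read 7.23, 7.02 and 7.42 against 6.81, 6.86 and 6.82, a difference of 0.39 ± 0.15.

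White fat genes differed by small steps, mostly below 0. Adipoq, the adipocyte hormone adiponectin, lay between 14.03 and 14.21 in all 6 animals (difference -0.07, 95% interval -0.25 to 0.12). Of 13 white adipocyte genes tested, 12 lay below 0, 4 did not overlap and were lower (beside 6.43% of all genes), 0 passed, and the median was -0.12. Aqp7, the glycerol channel of fat cells, read 9.60, 9.67 and 9.63 against 9.95, 9.95 and 10.19, a difference of -0.40 ± 0.19. Cidec, a lipid droplet protein, differed by -0.25 ± 0.17, also without overlap.

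Acaa1b, Ces1f, Irs2 and Inmt were among the 8 largest non-overlapping differences below 0, and were chosen by that rule, not as a group. Acaa1b, a peroxisomal thiolase of fatty acid oxidation, read 10.12, 9.87 and 9.67 against 11.17, 10.71 and 10.52. The groups did not overlap, and the difference was -0.91 ± 0.26 (1.89-fold, unadjusted p 0.00222, limma). Ces1f, a carboxylesterase, read 10.58, 10.35 and 10.40 against 11.30, 11.03 and 11.01, a difference of -0.67 ± 0.24. Irs2, an adaptor of insulin receptor signalling, read 8.52, 8.53 and 8.40 against 9.01, 9.40 and 8.86. Inmt, an indolethylamine methyltransferase, differed by -0.62 ± 0.51. The list of fatty acid and cholesterol synthesis genes did not share this direction: of 15 tested, 12 lay above 0, 0 did not overlap, 0 passed, and the median was 0.15. For Acaa1b the tamoxifen tumor animals lay within the span of the 14 other animals, 9.19 to 10.46, and the placebo tumor-free animals lay above that span.

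Spon1, Clca3a2 and Cdh11 were among the 12 higher genes with the smallest p. Spon1, an extracellular matrix protein, read 9.99, 9.65 and 10.45 in the tamoxifen tumor animals and 8.84, 8.31 and 9.08 in the tumor-free placebo animals. It differed by 1.29 ± 0.41 (2.44-fold, unadjusted p 0.00514, limma), and the tamoxifen tumor-free animals ran from 10.01 to 10.81. Its other tested probe sets differed by less, 0.48 and 0.72. Clca3a2, a chloride channel accessory protein, read 9.31, 8.53 and 9.32 against 8.25, 7.91 and 7.48, a difference of 1.17 ± 0.40. Cdh11, the cadherin of mesenchymal cells, read 8.85, 8.65 and 9.41 against 8.64, 7.92 and 8.15. Its closest values, 8.65 and 8.64, nearly met. Of 14 fibroblast and matrix genes, 12 lay above 0, 0 did not overlap and 0 passed, with a median of 0.21. Col3a1, a fibrillar collagen, differed by 0.40 ± 0.22 (1.02 on its second tested probe set) and Postn, periostin, by 0.20 ± 0.24.

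The remaining genes with the smallest p differed by small steps over a narrow spread. Higher were Armcx2 (0.27 ± 0.08, with 0.24 and 0.13 on its other tested probe sets), Zfp398 (0.16 ± 0.05), Meak7 (0.21 ± 0.07), Zfhx2 (0.25 ± 0.08), Dcdc2a (0.20 ± 0.07), Rnf157 (0.22 ± 0.08) and Gm17508 (0.23 ± 0.08). Ndel1, a dynein regulator, had the smallest p of all genes (0.000818, limma, unadjusted). It read 10.71 to 10.79 in the tamoxifen tumor animals and 10.90 to 11.05 in the placebo animals, a difference of -0.22 ± 0.06. Med12, a subunit of the Mediator complex, read 9.07, 9.12 and 9.09 against 9.30, 9.29 and 9.29, which makes both groups tight. Septin4, a cytoskeletal GTPase, differed by -0.39 ± 0.11, Mbd6, a methyl-CpG-binding domain protein, by -0.23 ± 0.07, and Irak2, a kinase of interleukin-1 receptor signalling, by -0.47 ± 0.13. None of these had an adjusted p below 0.99991.

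**Figure D4:**
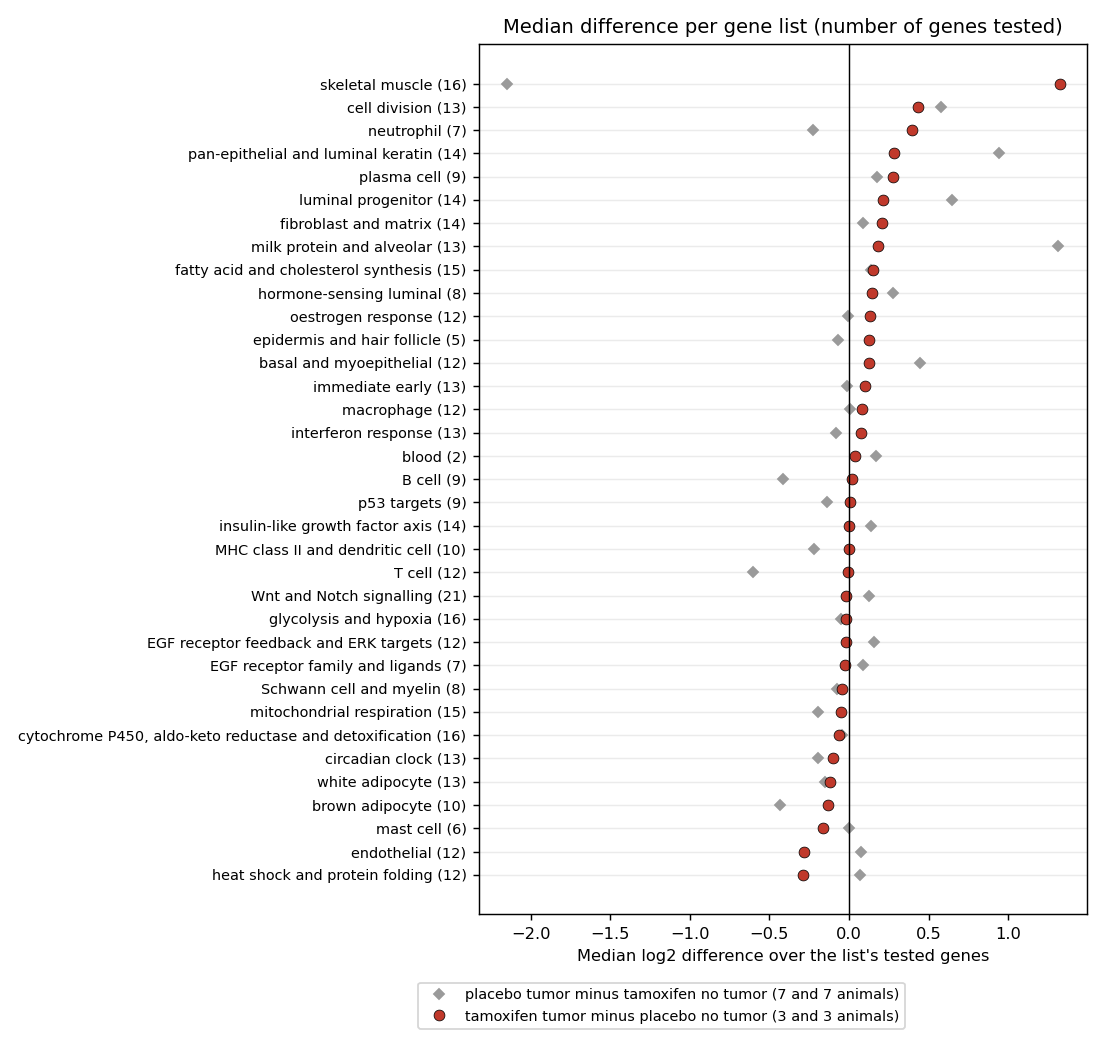
Median log2 difference over the tested genes of each of 35 gene lists, with red circles for tamoxifen tumor minus placebo tumor-free animals (3 and 3) and grey diamonds for placebo tumor minus tamoxifen tumor-free animals (7 and 7). Skeletal muscle lies farthest right for the 3 and 3 animals, at 1.32, and farthest left for the 7 and 7, at -2.15, while heat shock (-0.29) and endothelial genes (-0.28) lie lowest for the 3 and 3.

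Of 489 listed genes, 450 had a probe set and 398 were tested, and 0 passed the test between the tamoxifen tumor and placebo tumor-free animals. Lists with medians close to 0, several of which changed sign with array scaling, included macrophage (0.08), interferon response (0.08), p53 target (0.00), insulin-like growth factor axis (0.00), Wnt and Notch signalling (-0.02), glycolysis and hypoxia (-0.02) and mitochondrial respiration genes (-0.05). Mreg, a melanosome transport protein, and Arg2, a mitochondrial arginase, both called in the 7 against 7 pair, differed by -0.26 ± 0.25 and -0.22 ± 0.34 with overlap.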

How the data were processed

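Arrays of 20 glands, 1 per animal, were grouped from the labels into tamoxifen with tumor (3), placebo without tumor (3), placebo with tumor (7) and tamoxifen without tumor (7). The authors deposited log2 values per probe set, computed with RMA according to the submitters' processing notes. The RMA software, its version and a genome build are not stated there. Array medians lay between 6.82 and 6.89, and pairwise correlations between 0.977 and 0.997.

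Of 45101 probe sets, 34958 had 1 symbol (34754 updated through their Entrez ID), 932 had several and 9211 had none. Each of 18194 genes took its probe set with the highest mean, and 12499 with a value above 6.85, the median of all values, on 3 or more arrays were tested. The test was limma 3.58.1 in R 4.3.3 (lmFit, eBayes, two-sided, Benjamini-Hochberg, threshold 0.05), fitted to the 4 groups on all 20 arrays, and it was tested on simulated data. An exact test of 3 against 3 animals cannot go below a p of 0.10. The p-values rest on a spread between animals estimated from all 20 arrays, most of them outside the 3 against 3 comparison. The number of arrays limits the precision.

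Named were the 12 genes with the smallest p in each direction, the 8 largest non-overlapping differences in each direction, the members of each list with the highest and lowest moderated statistic, the leading genes of the other contrasts, and a set that included Tgfa, Esr1, Elf5 and Akr1cl. The animals, lists and rules were chosen with earlier results of these data known. Promoters are from RefSeq (GRCm38.p6). Alternatives covered the samples fitted, scaling, filter, probe set, variance model, weights, blocks, covariates and leaving out each animal. Same-numbered placebo and tamoxifen animals correlated above 0.1 in 4 of 10 pairs (range -0.10 to 0.59), so the numbers were not taken as pairs.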

Additional observations from a re-analysis of the deposited data

Results flagged for a closer look

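The difference between both pairs of groups was tested gene by gene, and 1 gene differed: Akr1cl, by 4.72 on the log2 scale (limma adjusted p = 0.000627). It was higher in all 3 tamoxifen tumor animals than in all 3 placebo tumor-free animals, and lower in all 7 placebo tumor animals than in all 7 tamoxifen tumor-free animals.

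Single animals stood far from the rest of their group of 7 in 11 of 166 gene and group combinations examined (Dixon's ratio above its critical value), where chance gives about 1 in 20. None of these animals belongs to the 3 against 3 comparison, whose groups are too small for such a check. Among tamoxifen animals without tumors, animal 3 was low for Akr1cl (10.06) and for Prtn3 (8.76), and animal 7 was low for Armcx2 (9.45). Among placebo animals with tumors, animal 2 was low for Csn2 (9.23), Cdh11 (8.21) and Col3a1 (12.85) and high for Tbx3 (8.32). Animal 4 of that group was low for Krt18 (10.75), animal 7 was high for Meak7 (8.30), and animal 8 was high for Top2a (10.85) and Rrm2 (10.79).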

How the results depend on the processing

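The count of 0 genes between tamoxifen tumor and placebo tumor-free animals held in 20 of 22 alternatives. It was 4 with animals numbered 1 to 5 alone (Ccng2, Cdh5, Kcnk3 and Ppargc1a, all lower, of which Ccng2 and Kcnk3 are named after their values were seen), and from 0 to 1 with 1 animal left out. The 579 genes of the 7 against 7 pair became 141 without placebo tumor animals 7, 8 and 9, 356 without moderation of the variances, 319 with numbers 1 to 5 alone and 6 with the pan-epithelial covariate. The 1 gene of the subtraction of the pairs became 2 without a filter, 2 with array weights, 2 with the muscle covariate, 2 with the pan-epithelial covariate, 17 with numbers 1 to 5 alone and 1 to 2 with an animal left out. The 1 gene of the sum became 2 without placebo tumor animals 7, 8 and 9, 6 with a block for numbers 1 to 5 and 6 to 10, 11 with numbers 1 to 5 alone, 0 with the pan-epithelial covariate and 1 to 7 with an animal left out. With numbers 1 to 5 alone, Akr1cl (3.97) and Csn1s1 (5.54) no longer passed in these contrasts. Non-overlapping higher genes numbered 889 without a filter and 716 over all probe sets, and lower ones 1423 over all probe sets. With 1 animal left out, which makes separation easier, there were 881 to 1222 higher and 1009 to 2293 lower.

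The number within treatment as a block, which the labels do not give as a pairing, left 0 genes in the 3 against 3 comparison and gave 1647 in the 7 against 7 pair, 4 in the subtraction and 759 in the sum. With this block the difference changed sign for Egfr (-0.077), Pgr (-0.94), Akr1cl (-0.29), Prtn3 (-0.58), Cxcl15 (-0.53), Vwf (-0.051), Lyve1 (-0.51) and Nmu (-0.14). The compared groups share no number.

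Other changes of sign were those of Esr1 (0.012), Wap (-0.081) and Elf5 (-0.27) with the pan-epithelial covariate, Pgr (-0.033), Wap (-0.07) and Lyve1 (-0.28) with numbers 1 to 5 alone, and Vwf (-0.034) with the muscle covariate. With 1 animal left out, ranges crossed 0 for Esr1 (-0.28 to 0.028), Pgr (-0.056 to 0.45), Wap (-0.037 to 0.19), Elf5 (-0.025 to 0.65), Arg2 (-0.49 to 0.033), Postn (-0.001 to 0.40), Cxcl15 (-0.16 to 0.87), Vwf (-0.051 to 0.17) and Lyve1 (-0.22 to 0.28). The cause of these changes was not tested. Of 83 genes, 70 had 1 sign in all alternatives, a count that is not support for their directions. Many were named for a small p or non-overlap in these animals, and a non-overlapping gene cannot change sign when 1 animal is left out. Several alternatives, such as those of the variance model, leave the estimate as it is. The endothelial median stayed between -0.52 and -0.20, and the muscle median was -0.06 with the muscle covariate.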
